A study of Mus musculus with 12 samples.

Results

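Potassium channels let potassium ions leave or enter a cell through a selective pore. In skeletal muscle they set the resting potential, end each action potential and return the fibre to rest during repeated firing. The family comprises voltage-gated (Kv) channels with accessory subunits, inward rectifiers (Kir), 2-pore-domain leak channels (K2P) and channels opened by calcium or sodium. The genes described here are every entry of the deposited count table whose symbol begins with Kcn followed by at least 1 lower-case letter. There were 98 such entries among 24421, and 48 of the 98 had enough counts to be tested.

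The samples were whole tibialis anterior, a mostly fast-fibre muscle of the lower hindlimb, from male mice aged 4 months. The 2 groups were 6 WT mice of the strain C57Bl/6 and 6 mdx/mTR mice. The name mdx denotes a loss-of-function allele of Dmd, which encodes the membrane-linking protein dystrophin, and mTR stands for telomerase RNA, whose gene appears in the count table as Terc. The labels give neither the telomerase allele nor the number of generations without it, and mice with only 1 of the mutations were not analysed here, so effects of the 2 loci cannot be told apart. A difference in background strain cannot be told apart from them either. Levels are read counts brought to a common library size (CPM) with TMM scaling, which balances the bulk of genes between libraries, and a fold change is mdx/mTR over WT. "Called" means an adjusted p below 0.05 in edgeR's quasi-likelihood test over all 13937 genes tested.

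The WT mice had 228 to 244 CPM of Dmd and the mdx/mTR mice 35.2 to 56.4 CPM, which matches the labels (-2.34 ± 0.09 SE on the log2 scale, edgeR adjusted p 8.3e-10). Terc had 2 counts in all libraries together and checks nothing. Library totals were 35136327 to 60330410 counts. Of 8 markers of skeletal muscle fibres, none was at 0 and their summed level was 191866 to 215471 CPM in WT and 145581 to 197348 CPM in mdx/mTR, so the defining markers of the labelled tissue were present. Of the 8, Myh4, the main fast myosin heavy chain, was called lower (66076 to 43138 CPM on average, edgeR adjusted p 0.00267) and the other 7 were not called. All 8 macrophage markers were called higher (sum 81.5 to 138 CPM in WT, 237 to 667 CPM in mdx/mTR), as were all 6 markers of immature fibres (35.02 to 46.6 CPM and 122 to 529 CPM), while 6 of 7 Schwann cell markers were called lower (52.7 to 65.6 CPM and 27.4 to 42.1 CPM). In such bulk samples, fewer cells of a type and less RNA per cell cannot be told apart. Small changes depend on the scaling: with library totals alone, fold changes were shifted upward by a median of 0.16 on the log2 scale.

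Bases just before the transcription start are shown for the members at the centre of the results: 3 that rose and Kcng4, which fell. They come from RefSeq windows on GRCm38.p6, reaching 250 bases before the RefSeq start, and read 5′ to 3′ on the gene's strand. The last 96 bases for Kcne1l and the last 27 for Kcnk5 are left out because the gene starts earlier in GENCODE. The sequences let a reader see how a common motif is spread over genes that moved apart, with capitals marking CAGCTG, the E-box form bound by myogenic factors such as MyoD, which reads the same on both strands.
Kcnk5 (chr14:20181810-20182032, minus strand): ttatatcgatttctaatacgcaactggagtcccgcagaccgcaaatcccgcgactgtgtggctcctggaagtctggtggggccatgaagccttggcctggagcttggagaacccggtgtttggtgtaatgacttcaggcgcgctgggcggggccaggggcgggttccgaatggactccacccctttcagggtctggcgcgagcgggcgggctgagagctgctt
Kcnn3 (chr3:89519914-89520163, plus strand): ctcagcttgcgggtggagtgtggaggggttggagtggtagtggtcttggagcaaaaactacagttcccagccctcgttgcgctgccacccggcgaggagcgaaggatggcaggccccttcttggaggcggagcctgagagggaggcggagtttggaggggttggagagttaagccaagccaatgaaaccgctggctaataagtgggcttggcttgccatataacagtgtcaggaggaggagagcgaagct
Kcne1l (chrX:142306295-142306448, minus strand): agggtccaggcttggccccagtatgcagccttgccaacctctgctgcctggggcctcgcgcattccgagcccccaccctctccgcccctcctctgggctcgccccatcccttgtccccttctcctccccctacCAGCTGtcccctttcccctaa
Kcng4 (chr8:119635681-119635930, minus strand): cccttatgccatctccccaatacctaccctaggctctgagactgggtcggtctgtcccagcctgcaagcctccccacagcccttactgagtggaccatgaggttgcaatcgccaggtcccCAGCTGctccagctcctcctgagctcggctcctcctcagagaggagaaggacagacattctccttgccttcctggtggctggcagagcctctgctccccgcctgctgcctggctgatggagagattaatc
Kcne1l held CAGCTG once, beginning 117 bases before the RefSeq start, and Kcng4 once, beginning 130 bases before it. Kcnk5 and Kcnn3 held none in the window of 250 bases. Over all RefSeq genes with such a window, 14.7% of 27025 held it in at least 1 window. Of the 72 members with a window, 17 (23.6%) held it: 2 of the 11 called higher (Kcnc2 and Kcne1l) and 4 of the 10 called lower (Kcna2, Kcng4, Kcnj3 and Kcnn1). The looser CANNTG, of which CAGCTG is 1 form, was in 69.4% of members and 69.3% of all genes. A match of letters is a description and not a binding site.

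Potassium channel genes changed in both directions. Of the 48 tested, 29 (60.4%) were called, against 48.3% of all genes tested. Of these, 13 rose and 16 fell, where 25.0% of all genes rose and 23.4% fell. A change of at least 2-fold was found for 16 members, 9 higher and 7 lower, which is 33.3% of those tested beside 9.18% of all genes. Several of the 16 were low in WT, such as Kcnk13 (0.2398 CPM on average) and Kcnk1 (0.441 CPM). The share of all genes was not matched for level. The groups did not overlap for 19 members (39.6%, beside 25.2% of all genes), 7 higher and 12 lower (each direction held 12.6% of all genes). Fold changes had a median of -0.05 on the log2 scale over the tested members and 0.01 over all genes. With library totals alone, 31 members were called, 18 higher and 13 lower, and over all genes 5596 were higher and 1560 lower, beside 3479 and 3257 with TMM. These counts describe the list and are not a test of it.

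The abundant members and the changed members were mostly different genes, as the plot of levels and fold changes by role shows. Per kilobase of transcript, 6 members (Kcna7, Kcnj11, Kcnc4, Kcnj12, Kcnc1 and Kcng4) made up 81.2% ± 1.11 of the summed level of all 98 in WT, against 78.1% ± 1.56 for mdx/mTR (SD, n = 6 each). The summed level itself was 428 to 469.8 CPM per kilobase in WT and 291 to 412 in mdx/mTR, without overlap, and 83.1% of WT on average. With library totals alone it was 92.2% of WT and the groups overlapped, at 403 to 436 and 337 to 417. Mouse 5 of the mdx/mTR group had the lowest sum, and without it the mean was 86.6% of WT. That mouse also had the lowest summed skeletal muscle fibre markers of its group (145581 CPM). The part of fibre content in its low sum was not tested.

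**Figure D1:**
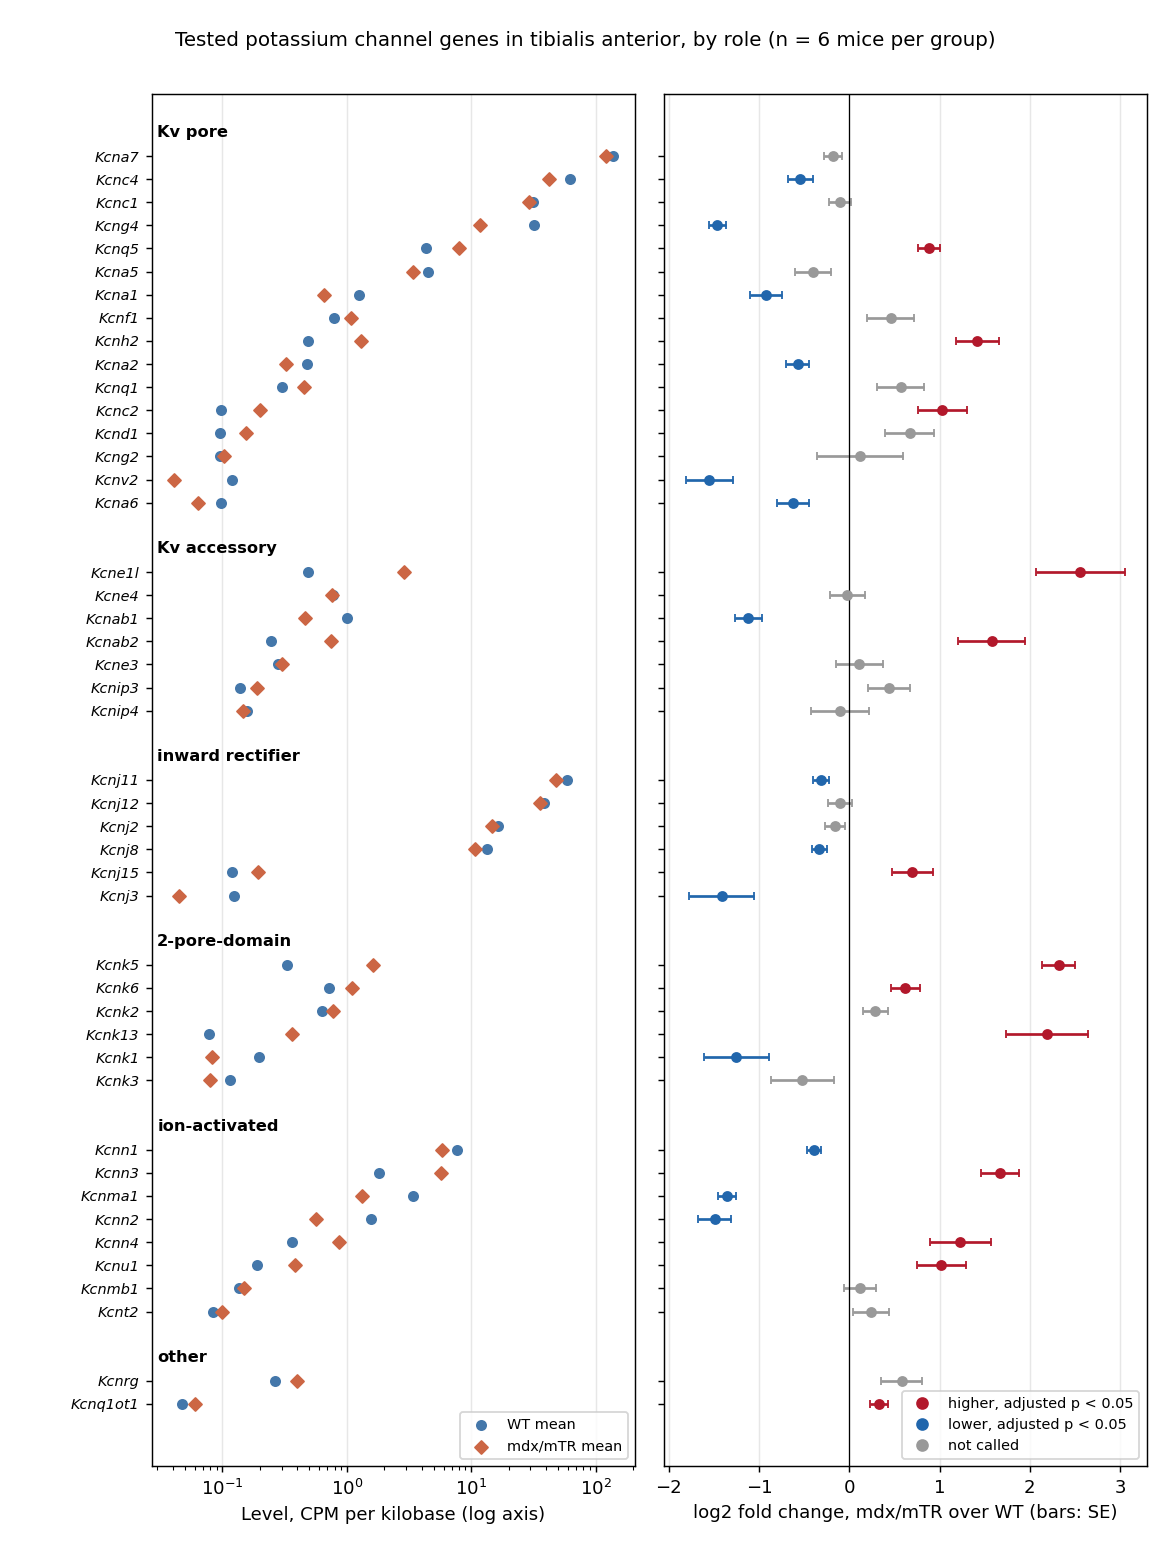
The left panel gives the mean level of tested members in CPM per kilobase of its longest coding transcript (log axis; circles WT, diamonds mdx/mTR), grouped by role, and the right panel its log2 fold change with the SE (n = 6 mice per group; red called higher, blue called lower, grey not called). Kcna7 heads the levels with a small fold change, and the widest changes lie among members of low level such as Kcne1l, Kcnk5 and Kcnk13.

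Voltage-gated pore subunits form the channel itself, although this role also holds silent subunits, such as Kcng4 and Kcnv2, that form none alone. Of the 40 genes of this role 19 were tested. Of these 8 fell, 3 rose and 8 were not called, with a median log2 fold change of -0.18. Their summed level was 283 to 318 CPM per kilobase in WT and 184 to 259 in mdx/mTR, and the groups overlapped with library totals alone (264 to 295 and 213 to 271).

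Kcna7, which encodes Kv1.7 and was the highest member per kilobase, was at 271 to 330.4 CPM in WT (median 299.8) and 187 to 292 CPM in mdx/mTR (median 277). Apart from mouse 5, the mdx/mTR values of Kcna7 lay between 273 and 292 CPM, inside the WT range. Its log2 fold change was -0.18 ± 0.10 SE (edgeR adjusted p 0.145). Kcnc1, which encodes the fast delayed rectifier Kv3.1, also overlapped, at 196 to 289 CPM (median 248) and 154 to 274 CPM (median 227). Its log2 fold change of -0.10 ± 0.12 SE (edgeR adjusted p 0.517) had the opposite sign with library totals alone (0.0473).

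The largest fall among the abundant members was that of Kcng4. It encodes Kv6.4, a subunit that forms no channel alone and alters the gating of the pore subunits it joins. Kcng4 (chromosome 8, 119623854 to 119635680 on GRCm38, GENCODE M21) was at 105 to 135 CPM in WT (median 126) and 37.7 to 51.1 CPM in mdx/mTR (median 44.9). The mean in mdx/mTR was 36.2% of WT (-1.46 ± 0.09 SE on the log2 scale, edgeR adjusted p 6.7e-08), and every mdx/mTR mouse lay below every WT mouse.

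The Kv3 subunits, which repolarise fast-firing cells, did not move as 1 group. Kcnc4 (Kv3.4) was at 204 to 243 CPM (median 231) in WT and 89.98 to 194 CPM (median 159) in mdx/mTR, lowest in mouse 2 (-0.54 ± 0.14, edgeR adjusted p 0.00588). The groups did not overlap for Kcnc4. Kcnc2 (Kv3.2), at less than 1 CPM in WT, went the other way, from 0.194 to 0.705 CPM (median 0.498) to 0.756 to 1.49 CPM (median 0.943; 1.03 ± 0.27, edgeR adjusted p 0.00691).

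The Kv1 subunits Kcna1 and Kcna2 are best known from the membrane beside the nodes of myelinated axons, where they sit with the accessory subunit Kcnab2. Kcna1 was at 4.11 to 6.16 CPM (median 5.02) in WT and 1.72 to 3.56 CPM (median 2.75) in mdx/mTR (-0.92 ± 0.18, edgeR adjusted p 9.3e-04). Kcna2 was at 5.01 to 6.16 CPM (median 5.51) and 2.902 to 4.62 CPM (median 3.71; -0.57 ± 0.13, edgeR adjusted p 0.00293). Both fell without overlap. Kcna6, at 0.445 to 0.694 CPM (median 0.579) and 0.328 to 0.4605 CPM (median 0.348), fell as well (-0.62 ± 0.18, edgeR adjusted p 0.0111), but overlapped and was not called with library totals alone (-0.466, edgeR adjusted p 0.0507). Beside these falls, 6 of 7 Schwann cell markers were lower, and none of the 7 was at 0. Of 5 neuron markers only Tubb3 was abundant enough to test and it was called higher (0.3003 to 0.586 CPM on average), while Snap25, Syt1 and Nefl had 1 to 4 counts over all libraries. The part of nerve cells in the falls of Kcna1, Kcna2 and Kcna6 was not tested.

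Kcnv2, another silent subunit, fell from 0.335 to 0.955 CPM (median 0.609) to 0.174 to 0.229 CPM (median 0.217; -1.55 ± 0.26, edgeR adjusted p 3.6e-04). All 6 mdx/mTR values of Kcnv2 were low and close together. Subunits of this role that were tested and not called included Kcna7, Kcnc1, Kcna5 (-0.40 ± 0.20), Kcnf1 (0.46 ± 0.26), Kcnq1 (0.57 ± 0.26), Kcnd1 (0.67 ± 0.27) and Kcng2 (0.12 ± 0.48), each with the SE of its log2 fold change.

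**Figure D2:**
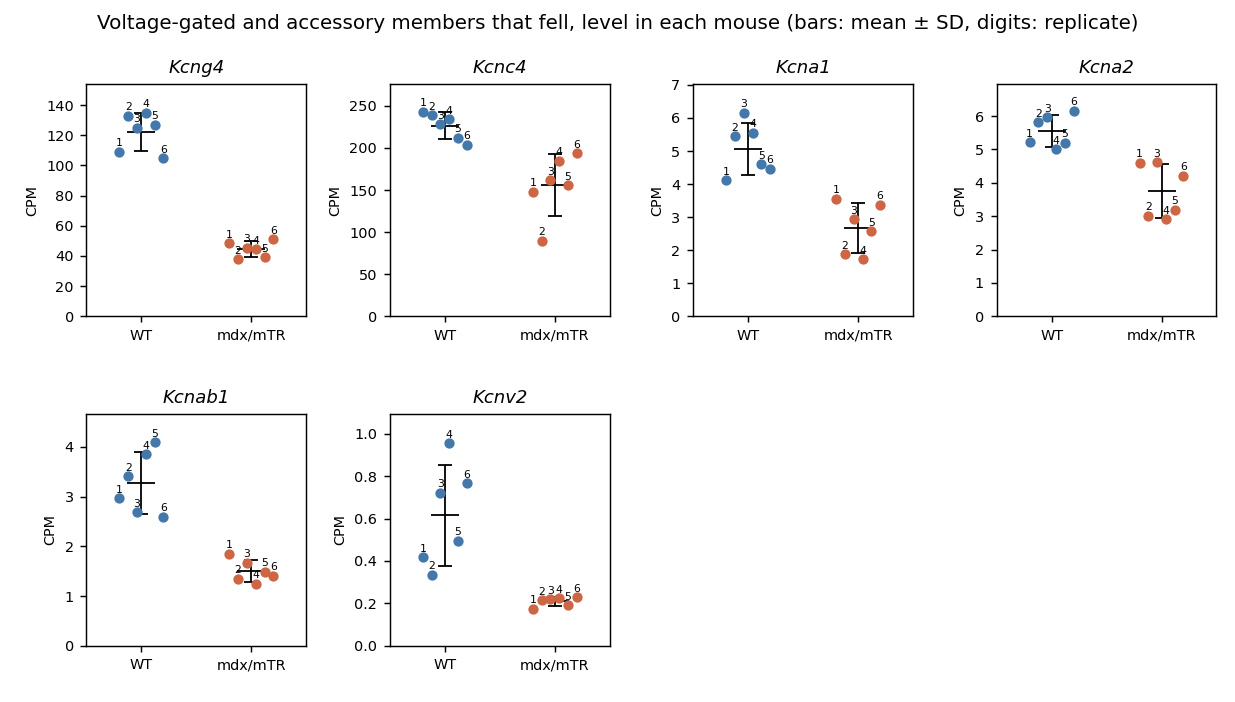
Each point is the level of a voltage-gated or accessory member in 1 mouse (CPM, axis from 0; digits give the replicate, bars the mean ± SD, n = 6 per group). In every panel shown the mdx/mTR mice lie below the WT mice, with Kcng4 at 37.7 to 51.1 CPM against 105 to 135 CPM.

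The voltage-gated members that rose were Kcnq5, Kcnh2 and Kcnc2. Kcnq5 encodes Kv7.5, a slowly gating subunit of the M-current family, on chromosome 1 (21398403 to 21961942). It was at 24.7 to 33.3 CPM (median 31.4) in WT and 46.2 to 72.6 CPM (median 52.4) in mdx/mTR, 184% of WT on average (0.88 ± 0.12, edgeR adjusted p 4.5e-05). Kcnh2, the ether-à-go-go-related (ERG) channel of cardiac repolarisation, was at 1.23 to 3.77 CPM (median 1.95) in WT and 3.99 to 7.38 CPM (median 5.56) in mdx/mTR (1.42 ± 0.24, edgeR adjusted p 3.2e-04). WT mouse 2 was the highest of its group for Kcnh2 and still lay below every mdx/mTR mouse.

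Accessory subunits bind Kv channels and change their gating or traffic, and 7 of 12 were tested, with 2 higher, 1 lower and 4 not called. Kcne1l, also named Kcne5, encodes a small membrane-spanning subunit and showed the largest log2 fold change of all members, 2.56 ± 0.49 SE (edgeR adjusted p 7.6e-04). It was at 0.445 to 1.005 CPM (median 0.7903) in WT. In mdx/mTR it was at 10.8 CPM in mouse 2, 6.71 in mouse 1 and 3.86 in mouse 6, and at 1.53 to 1.97 CPM in mice 3, 4 and 5. So the mdx/mTR mice fell into high and low values, although each exceeded all WT mice. Mice 1, 2 and 6 also had the 3 largest library totals, and the part of library size in this spread was not tested.

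The cytosolic Kvβ subunits moved apart. Kcnab1 fell from 2.599 to 4.101 CPM (median 3.19) to 1.25 to 1.85 CPM (median 1.45), without overlap (-1.12 ± 0.15, edgeR adjusted p 4.1e-05). Kcnab2 was at 0.5001 to 1.22 CPM (median 1.04) in WT and 1.03 to 6.43 CPM (median 2.77) in mdx/mTR, called higher although mdx/mTR mouse 1 lay among the WT mice (1.58 ± 0.37, edgeR adjusted p 0.00348). Kcne4 differed by less than the spread, at 2.05 ± 0.529 and 2.02 ± 0.447 CPM (SD, n = 6 each; -0.02 ± 0.19 SE, edgeR adjusted p 0.945), and library totals alone turned the sign (0.126). Kcne3, a known partner of Kcnc4, was at 0.3701 and 0.395 CPM on average (0.11 ± 0.26 SE). Kcnip3 (0.44 ± 0.23) and Kcnip4 (-0.10 ± 0.32) were not called either.

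Inward rectifiers pass potassium most easily at rest and hold the resting potential. Of 15 genes 6 were tested, with 3 lower, 1 higher and 2 not called, and a median log2 fold change of -0.23. Kcnj2 and Kcnj12 encode Kir2.1 and Kir2.2, the classical resting conductance of muscle, and neither was called. Kcnj2 was at 72.3 to 101 CPM (median 90.9) in WT and 54.8 to 90.4 CPM (median 83.6) in mdx/mTR (-0.16 ± 0.11 SE, edgeR adjusted p 0.275). Kcnj12 was at 88.9 to 109 CPM (median 92.1) and 62.8 to 117 CPM (median 82.4), with a wider spread in mdx/mTR (-0.10 ± 0.13 SE, edgeR adjusted p 0.539) and a positive sign with library totals alone (0.0411).

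The ATP-sensitive channel joins the Kir6 pore with a sulfonylurea receptor and opens when ATP is low. Its muscle pore gene Kcnj11 (Kir6.2), the second member per kilobase, was at 174 to 201 CPM (median 186) in WT and 110.4 to 169.8 CPM (median 156) in mdx/mTR. The groups did not overlap and the mean was 80.6% of WT (-0.31 ± 0.09, edgeR adjusted p 0.00962), but the gene was not called with library totals alone (-0.161, edgeR adjusted p 0.0680). The vascular pore gene Kcnj8 (Kir6.1) was at 28.4 to 38 CPM (median 33.8) and 23.9 to 29.3 CPM (median 28.3; -0.33 ± 0.08, edgeR adjusted p 0.00315), ranges that overlapped, and likewise was not called with library totals alone (-0.172, edgeR adjusted p 0.142). The receptor genes Abcc9 (465 ± 19.3 to 377 ± 36.8 CPM; -0.30, edgeR adjusted p 0.00169) and Abcc8 (3.12 ± 1.39 to 1.78 ± 0.389 CPM; -0.80, edgeR adjusted p 0.0185) fell with the pores, Abcc8 not being called with library totals alone (-0.657, edgeR adjusted p 0.0502). Abcc9 is itself on the list of pericyte markers. Of the other 5, 3 were lower and none was at 0, and their sums overlapped (293 to 406 CPM in WT, 259 to 314 CPM in mdx/mTR). Endothelial markers had 4 of 6 lower (474 to 631 and 377 to 495 CPM), none at 0, and the part of vessel cells in the fall of Kcnj8 was not tested.

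A pair of low members completed this role in opposite directions. Kcnj3, a subunit of the G-protein-gated channel, was at 0.194 to 1.08 CPM (median 0.592) in WT and 0.109 to 0.349 CPM (median 0.2403) in mdx/mTR (-1.41 ± 0.36, edgeR adjusted p 0.00564). Kcnj15 (Kir4.2) was at 0.389 to 1.06 CPM (median 0.656) and 0.858 to 1.39 CPM (median 1.09; 0.70 ± 0.23, edgeR adjusted p 0.0200). Both overlapped between groups.

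**Figure D3:**
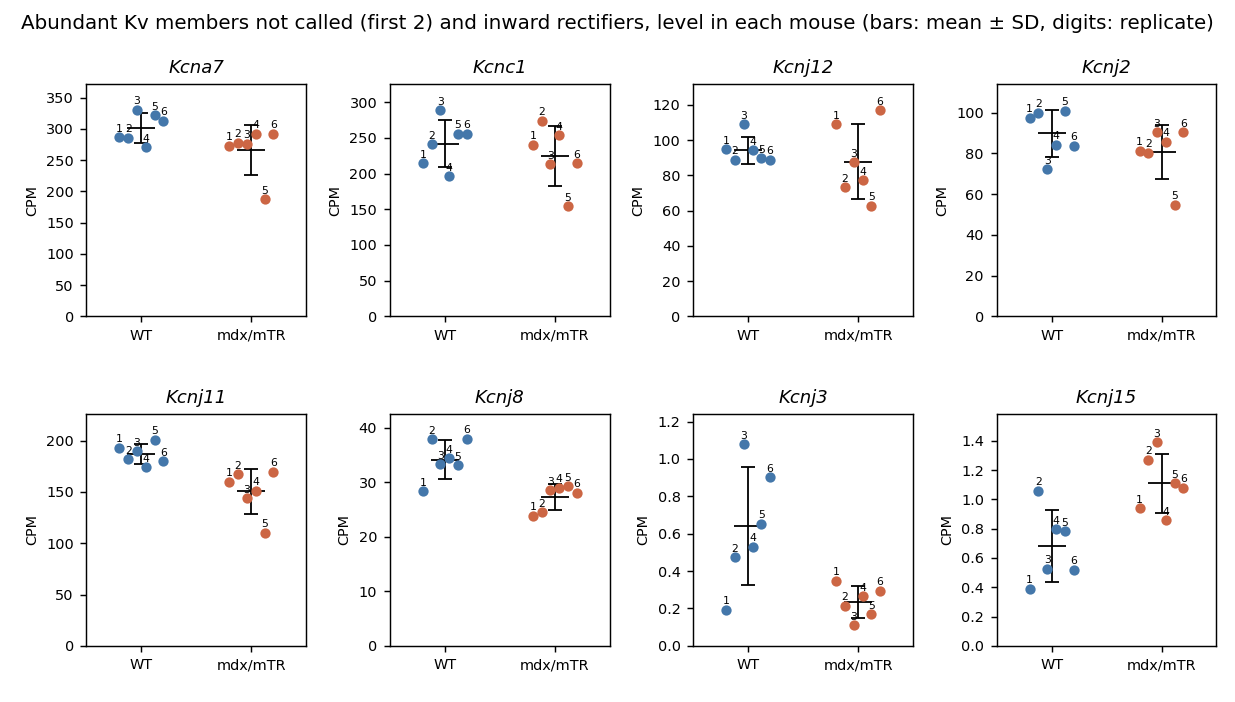
Each point is the level in 1 mouse (CPM, axis from 0; digits give the replicate, bars the mean ± SD, n = 6 per group) for 2 abundant Kv genes and the 6 tested inward rectifiers. Mouse 5 of the mdx/mTR group is the lowest of its group for Kcna7 (187 CPM), Kcnc1 (154 CPM), Kcnj12 (62.8 CPM), Kcnj2 (54.8 CPM) and Kcnj11 (110.4 CPM). Its summed skeletal muscle fibre markers are also the lowest of the group (145581 CPM). For Kcnj8 mouse 5 is the highest of its group (29.3 CPM). Kcnj3 and Kcnj15 lie between 0.109 and 1.39 CPM.

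The 2-pore-domain channels carry the leak of potassium, and all were low: none of the 14 exceeded 1 CPM per kilobase when averaged over both groups together. Within mdx/mTR, Kcnk5 averaged 1.64 and Kcnk6 1.11 CPM per kilobase, beside 0.329 and 0.72 in WT. Of 6 tested, 3 rose, 1 fell and 2 were not called. Their summed level was 1.91 to 2.45 CPM per kilobase in WT and 3.52 to 5.05 in mdx/mTR, and the groups stayed apart with library totals alone (1.78 to 2.33 and 3.57 to 5.85). Kcnk5 encodes TASK2, a leak channel opened by alkaline pH, on chromosome 14 (20140057 to 20181809). Kcnk5 was at 0.861 to 1.42 CPM (median 1.15) in WT and 3.88 to 7.36 CPM (median 5.18) in mdx/mTR, 499% of WT on average (2.32 ± 0.18 SE, edgeR adjusted p 7.3e-07). Every mdx/mTR mouse exceeded every WT mouse, with the highest values in mice 1 and 4.

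Kcnk13 (THIK1), known from microglia and macrophages, was at 0.111 to 0.547 CPM (median 0.177) in WT and 0.453 to 2.34 CPM (median 0.901) in mdx/mTR (2.19 ± 0.45, edgeR adjusted p 0.00144). Its mdx/mTR mice ranked from mouse 1, the lowest, to mouse 5, the highest, and only mouse 1 overlapped with WT. Kcnk6 (TWIK2), a channel studied in macrophages as a potassium efflux route, rose from 1.99 to 3.43 CPM (median 2.99) to 3.49 to 6.35 CPM (median 4.298), again highest in mouse 5 (0.62 ± 0.16, edgeR adjusted p 0.00643). Mouse 5 also had the highest summed macrophage markers, at 667 CPM, and mouse 1 had the lowest of its group, at 237 CPM. Within mdx/mTR, mouse 5 was also the highest and mouse 1 the lowest for the sum of immature fibre markers (529 and 122 CPM). The sums of T cell markers (5.94 and 3.05 CPM) and neuron markers (0.959 and 0.227 CPM) had the same extremes. Single markers carried little of this: Cd3e was highest in mouse 1 (0.296 CPM, beside 0.107 in mouse 5). The neuron sum of mouse 5 was Tubb3 alone. All 8 macrophage markers were higher and none was at 0, and the part of any of these cell types in the rises of Kcnk13, Kcnk6, Kcnab2 and Kcnn4 was not tested.

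Kcnk1 (TWIK1) fell from 0.164 to 0.611 CPM (median 0.487) to 0.123 to 0.349 CPM (median 0.143; -1.25 ± 0.36, edgeR adjusted p 0.0108). Kcnk2, the stretch-sensitive TREK1, was at 1.804 to 2.87 CPM (median 2.03) and 2.28 to 3.02 CPM (median 2.93), and was not called (0.29 ± 0.14 SE, edgeR adjusted p 0.106). Kcnk2 passed the threshold with library totals alone (0.444, edgeR adjusted p 0.0269), without WT mouse 2 (0.366, edgeR adjusted p 0.0462) and without WT mouse 4 (0.369, edgeR adjusted p 0.0470). Kcnk3 (TASK1) was not called (-0.52 ± 0.35).

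**Figure D4:**
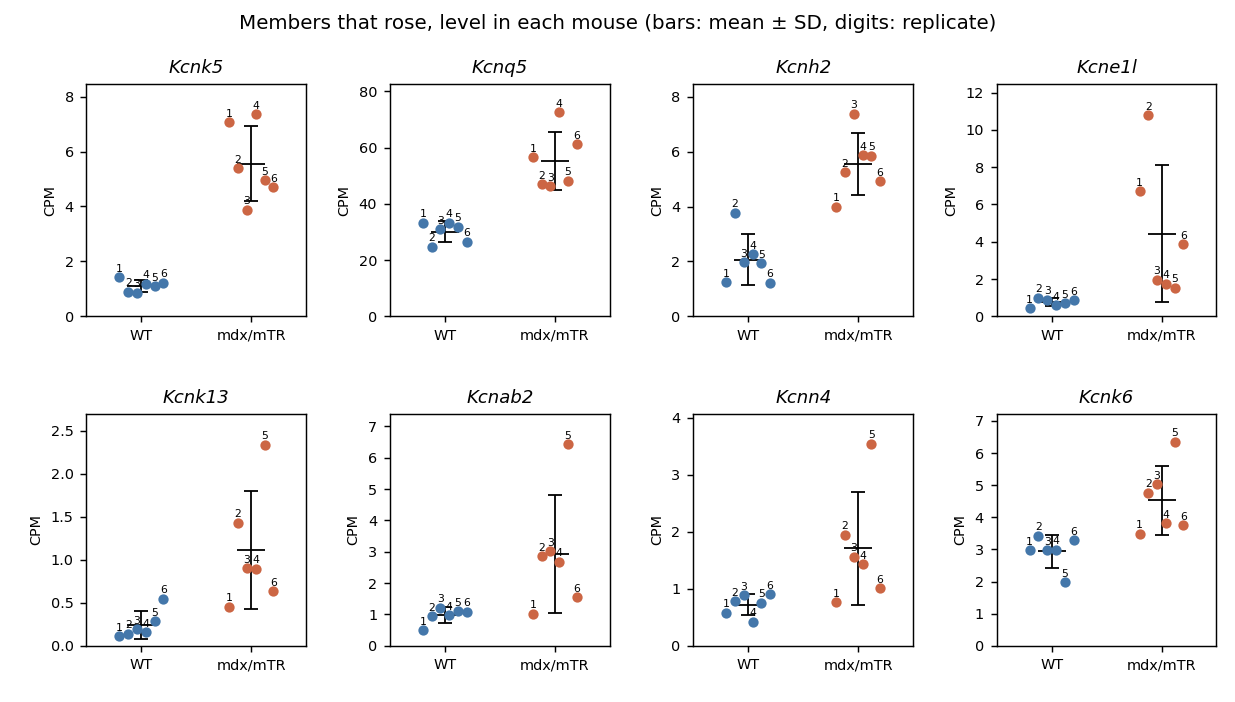
Each point is the level of a member that rose in 1 mouse (CPM, axis from 0; digits give the replicate, bars the mean ± SD, n = 6 per group). Kcnk5, Kcnq5, Kcnh2, Kcne1l and Kcnk6 separate the groups, Kcne1l is highest in mdx/mTR mouse 2 (10.8 CPM), and Kcnk13, Kcnab2, Kcnn4 and Kcnk6 are each highest in mdx/mTR mouse 5.

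Calcium-activated channels couple intracellular calcium to repolarisation, and 8 of the 12 calcium- or sodium-activated genes and subunits were tested: 3 rose, 3 fell and 2 were not called. Kcnma1, the pore of the large-conductance BK channel (chromosome 14, 23289431 to 24014491), was at 35.04 to 44.1 CPM (median 41.4) in WT and 12.7 to 20.2 CPM (median 16.03) in mdx/mTR. This fall to 39.2% of WT left no overlap (-1.35 ± 0.10 SE, edgeR adjusted p 7.4e-07). Its smooth-muscle subunit Kcnmb1 was not called, at 0.572 and 0.627 CPM on average (0.12 ± 0.18 SE, edgeR adjusted p 0.599). The 6 smooth muscle markers had 3 lower and 1 higher, none at 0, with sums of 179 to 257 and 192 to 232 CPM that overlapped.

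The 4 Kcnn genes encode the small-conductance channels SK1 to SK3 and the intermediate-conductance channel of Kcnn4, and all 4 were called, 2 in each direction. Kcnn2 was at 5.17 to 6.38 CPM (median 5.76) in WT and 1.04 to 2.65 CPM (median 2.197) in mdx/mTR, 35.8% of WT (-1.49 ± 0.18 SE, edgeR adjusted p 2.2e-05). Kcnn3, which encodes the SK3 channel known from immature and denervated muscle (chromosome 3, 89520164 to 89675132), was at 3.71 to 9.69 CPM (median 4.26) in WT and 13.8 to 21.5 CPM (median 16.5) in mdx/mTR, 318% of WT (1.67 ± 0.21 SE, edgeR adjusted p 3.2e-05). WT mouse 2 alone exceeded 5.33 CPM in its group, and the groups overlapped for neither Kcnn2 nor Kcnn3. All 6 markers of immature fibres rose too, with the highest sum in mdx/mTR mouse 5 (529 CPM), while Kcnn3 was highest in mouse 4. Their part in the rise of Kcnn3 was not tested.

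Kcnn1, the most abundant of the 4 per kilobase, fell less, from 29.1 to 33.2 CPM (median 30.9) to 18.5 to 26.6 CPM (median 25.04; -0.39 ± 0.08, edgeR adjusted p 0.00198). Kcnn4, a channel of blood cells and fibroblasts, was at 0.425 to 0.903 CPM (median 0.7696) in WT and 0.767 to 3.54 CPM (median 1.49) in mdx/mTR, highest in mouse 5 (1.23 ± 0.34, edgeR adjusted p 0.00801). Of the 2 T cell markers tested only Cd4, also carried by macrophages, was called higher, the list's sums overlapped (2.61 to 6.56 and 3.05 to 5.94 CPM), and Cd3e stayed at or under 0.296 CPM.

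The composition of the Kcnn genes shifted in every mouse while their sum did not separate the groups. Their sum averaged 11.4 ± 1.05 CPM per kilobase in WT against 13.03 ± 1.28 for mdx/mTR (SD, n = 6 each), with overlapping ranges. Kcnn3 made up 11.4% to 24.9% of it in WT and 39.1% to 48.3% in mdx/mTR. Kcnn2 made up 11.4% to 15.5% and 2.29% to 5.59%, and Kcnn1 60.8% to 71.02% and 36.9% to 53.6%. None of these 3 shares overlapped between groups, and a share of a sum does not depend on the scaling. Kcnn4 held 1.95% to 4.21% and 3.16% to 14.4%.

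**Figure D5:**
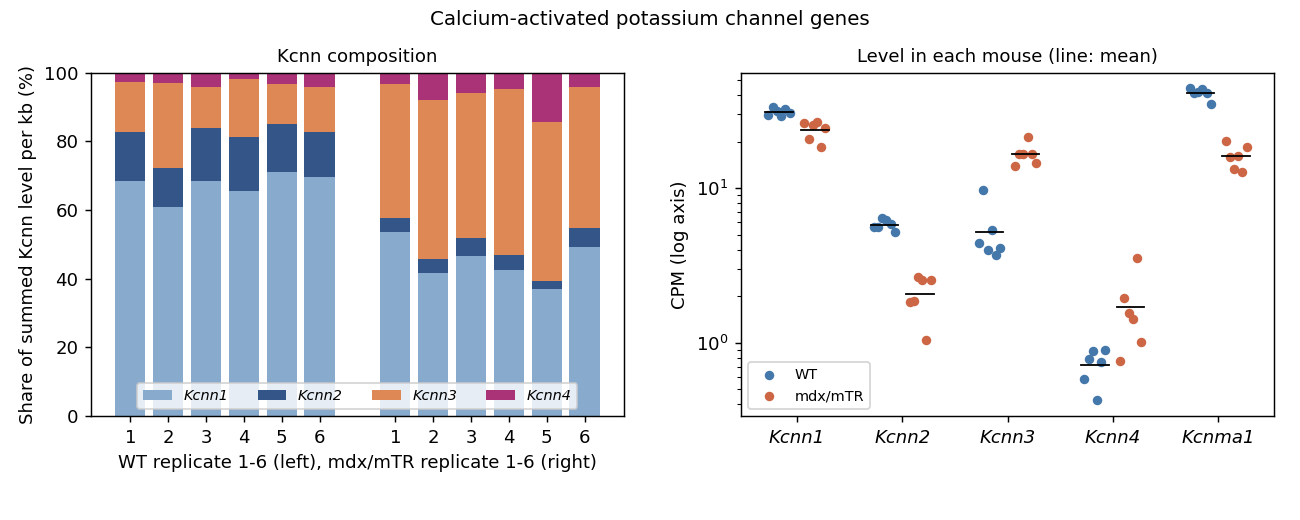
Left, bars give each mouse's share (%) of the summed Kcnn level per kilobase by gene; right, points give the CPM of the 4 Kcnn genes and Kcnma1 in each mouse on a log axis, with a line at the mean (n = 6 per group). Kcnn3 takes 39.1% to 48.3% of the sum in the mdx/mTR mice and 11.4% to 24.9% in the WT mice, and Kcnma1 and Kcnn2 lie lower in each mdx/mTR mouse.

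Kcnu1, the pore of a channel known from sperm, was at 0.502 to 0.957 CPM (median 0.639) in WT and 0.798 to 2.39 CPM (median 1.13) in mdx/mTR (1.02 ± 0.27, edgeR adjusted p 0.00686). Lrrc52, whose protein is an auxiliary subunit of that channel and of BK, fell from 0.783 ± 0.384 to 0.164 ± 0.0708 CPM (SD, n = 6 each; -2.22, edgeR adjusted p 3.7e-04). The long non-coding RNA Kcnq1ot1 carries the family prefix only through its host locus, and was at 3.53 to 4.91 CPM (median 4.52) and 4.35 to 6.33 CPM (median 5.65; 0.33 ± 0.10, edgeR adjusted p 0.0162). Kcnrg, a regulator of Kv assembly, was not called (0.58 ± 0.23, edgeR adjusted p 0.0543).

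Of 16 listed partners and related channels, 12 were tested: 4 fell, 1 rose and 7 were not called. Besides Abcc8, Abcc9 and Lrrc52, the fourth to fall was Dpp6, a partner of Kv4 channels (2.62 ± 0.205 to 1.59 ± 0.147 CPM; -0.72, edgeR adjusted p 9.4e-05). The pacemaker channel gene Hcn2 rose from 1.92 ± 0.306 to 3.28 ± 0.517 CPM (0.77, edgeR adjusted p 5.6e-04). Tmem38a, a potassium-permeable channel of the sarcoplasmic reticulum, was the most abundant of the list and was at 1689 ± 82.8 and 1686 ± 210.0 CPM (SD, n = 6 each). The Kv channel partner Amigo1 (63.99 and 61.1 CPM on average) and the BK partner Lrrc38 (34.3 and 29.3 CPM) were not called.

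The other 50 members were too low to test: 9 had no count in any library, 17 had fewer than 10 counts in all, and the highest, Kcns3, had 140. A library without a count for a gene still allows up to 3 counts at 95% confidence, or 0.0460 to 0.0837 CPM here, for counting error only. Among the 50, the groups of 1 gene did not overlap. This was Kcna10, singled out after its values were seen, with 10 to 17 counts in each WT mouse and 0 to 3 in each mdx/mTR mouse (76 and 5 in total). With no filter on low counts the log2 fold change of Kcna10 was -4.21 (edgeR adjusted p 6.56e-05). That fit also called Kcnq3 (-3.82, edgeR adjusted p 0.003) lower. It called Kcnh1 (2.01, edgeR adjusted p 0.0154), Kcnh5 (3.95, edgeR adjusted p 0.0338) and Kcnd3 (1.18, edgeR adjusted p 0.0383) higher. The groups overlapped for each of these further genes.

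Reads of neighbouring genes could affect some values, because the handling of strand is not given in the sources used here. In GENCODE M21, 12 of the 29 called members have an exon that overlaps a gene on the opposite strand, with the longest overlaps in Kcna6 (2355 bases), Kcnj3 (1621 bases) and Kcnma1 (1016 bases), and their levels are uncertain to that extent. Kcnab2 overlaps another gene on its own strand over 125 bases. Sequence shared with other genes was small: of 35 members described, 9 had any 50-base stretch in a transcript of another gene, at most 1.37% of stretches (Kcna6). In the authors' deposited table, 49 members have an adjusted p and 30 of them are below 0.05. Of those 30, 29 were called here in the same direction, and the other was Kcnd1, with 0.046 in the authors' deposited table and 0.0528 in edgeR. On the log2 scale Kcne1l has 1.73 in the authors' deposited table beside 2.56 in edgeR, and Kcng4 has -1.45 beside -1.46. Other members of low level also lie nearer 0 there, such as Kcnk13 (1.61 beside 2.19) and Kcnk1 (-0.98 beside -1.25). Whether the authors' fold changes were pulled toward 0 at low counts is not given, so the 2 measures may be unlike.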

How the data were processed

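RNA of 12 tibialis anterior samples was sequenced. Per the submitters' processing notes, FastQC, STAR, DESeq2 and mm10 were used; counter, annotation and strand handling are not given in the sources used here. The authors deposited whole-number counts per gene symbol (24421 entries, 5131 without counts, 0 unmatched sample columns). The authors' second deposited table, per the file headers, compares the groups: a base mean (a normalized signal), log2 fold changes and their standard errors, the test statistic (a score), and raw as well as adjusted p-values.

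The deposited counts entered edgeR 4.0.16 under R 4.3.3 unchanged (filterByExpr, TMM, glmQLFit and glmQLFTest, group the only term, Benjamini-Hochberg over 13937 genes, threshold 0.05). The SE is the log2 fold change over the square root of F. CPM uses TMM-scaled totals, and CPM per kilobase divides by the longest coding transcript of GENCODE M21 (mm10 is GRCm38), so genes using other isoforms are off in level. The labels number the replicates without saying that each is a separate mouse, though they are called mice here. The p-values weigh the difference between the groups against the spread of these 12 samples within their groups. Replicates differed beyond sampling noise (chi-square per degree of freedom 9.1 to 128). The scripts were tested on simulated data.

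Called members are named, except that some members and marker genes are not reported here singly, although the counts and sums include them. Full values are given for called members changed at least 2-fold, for the 3 highest per kilobase in each role, and for others chosen after their values were seen. Members, gene lists and tests were chosen with earlier results of these data known. Promoter windows matched 72 of 98 symbols. DESeq2 1.42.0 and limma-voom (limma 3.58.1), other scalings and filters, a replicate block and leaving out each mouse were alternatives; exon-union lengths, the scalings of the summed level and the pericyte list without Abcc9 were added after seeing the data. Marker lists covered skeletal muscle fibres, slow and immature fibres, macrophages, T cells, endothelium, pericytes, smooth muscle, Schwann cells, fibro-adipogenic progenitors, adipocytes and neurons.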

Additional observations from a re-analysis of the deposited data

Results flagged for a closer look

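A value is listed here when 1 mouse of the 6 in a group stood apart by Dixon's ratio, which sets its distance from the nearest other mouse against the whole range, at the 95% critical value. Of 82 sets of 6 values for the named genes, 9 did so, and chance alone gives about 1 in 20 (4.1).

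In mdx/mTR, mouse 5 accounted for 3 of the 9: it was lowest for Kcna7 (187 CPM, others 273 to 292, ratio 0.818) and Kcnj2 (54.8 CPM, others 80.3 to 90.4, ratio 0.715) and highest for Kcnab2 (6.43 CPM, others 1.03 to 3.01, ratio 0.634). Mouse 5 also had the lowest summed skeletal muscle fibre markers of its group (145581 CPM). Mouse 4 was highest for Kcnn3 (21.5 CPM, others 13.8 to 16.6). In WT, mouse 2 was highest for Kcnn3 (9.69 CPM, others 3.71 to 5.33, ratio 0.728) and mouse 3 for Kcnj12 (109 CPM, others 88.9 to 94.9). WT mouse 6 was lowest for Kcnma1 (35.04 CPM, others 41.2 to 44.1), and WT mouse 5 for Kcnk6 (1.99 CPM, others 2.97 to 3.43) and Kcnq1ot1 (3.53 CPM, others 4.42 to 4.91).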

How the results depend on the processing

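Over 19 alternatives, 26 of the 29 called members kept their direction and their call. Kcna6, Kcnj8 and Kcnj11 lost theirs with library totals alone, which called 31 members (18 higher, 13 lower), and none of the 29 reversed. The number of members called was 29 to 34 (34 with no filter, 33 with DESeq2), and 29 to 33 without each mouse in turn. Over all genes 6736 were called, 3479 higher and 3257 lower, and library totals alone gave 5596 higher and 1560 lower; that scaling keeps the shift of all genes that TMM removes. Signs that changed were those of 3 genes not called: Kcnj12 (0.0411) and Kcnc1 (0.0473) with library totals alone, and Kcne4 with library totals alone (0.126), limma-voom (0.00102) and without each of 5 mice (0.0166 to 0.0702; the range over all 12 omissions was -0.125 to 0.0702). Nothing in the labels says that the replicate numbers pair mice. Correlations of deviations between mice of the same number were -0.155 to 0.354 (2 of 6 above 0.1), which cannot settle whether they do. With a replicate block the same 29 members and 6420 genes in all were called. Depth limits what can be said of the 50 untested members.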

Other observations

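Slow fibre markers, which the comparisons above do not use, split: 4 of 6 rose and Myl3 fell, with sums of 67.3 to 186 CPM in WT and 53.01 to 179.6 CPM in mdx/mTR. Of the fibro-adipogenic progenitor markers 4 of 6 rose (493 to 658 and 779 to 986 CPM), among them Pdgfra (32.6 to 61.2 CPM on average). None of the 3 tested adipocyte markers was called.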
